A study of Mus musculus with 20 samples.

Results

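Liver RNA of untreated Fancd2 mutant mice was set against that of untreated wild-type mice, over all genes of 1 count table. The comparison was defined by the labels alone: 7 of the 18 libraries in the table are livers of mice given no drug, 4 labelled wild type (wt) and 3 labelled d2-/-. All came from male mice of a long-term drug study in which livers were collected after 18 months of treatment, and the other 11 libraries are d2-/- mice given metformin (3), the androgen oxymetholone (5) or both (3). The labels list 20 samples; the first untreated mutant sample and 1 metformin sample were not analysed here, so the mutant livers below carry the numbers 2, 3 and 4. The labels give neither the strain nor the exact design of the mutant allele, and they do not say that each library came from a separate animal. Error estimates therefore measure the spread between libraries. Standard errors and p-values of the main fit draw on the spread within all 18 libraries, the drug-treated mutants included. The genotype labels have no check from the targeted gene, since Fancd2 was not analysed here.

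Fancd2 encodes a protein that is monoubiquitinated by the Fanconi anaemia core complex when replication meets a crosslink between the DNA strands. The modified protein, clamped on DNA with its partner Fanci, brings in nucleases and the homologous recombination machinery. Aldehydes made in metabolism are among the agents that cause such crosslinks, and the liver is the main organ that clears them. Hepatocytes divide rarely in adult liver and are zoned along the blood flow, with gluconeogenesis and urea synthesis nearer the portal vein and glutamine synthesis, drug metabolism and Wnt signalling nearer the central vein. Their programme also follows feeding and the daily clock.

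Total counts were 21208673 to 29766050 per library. Levels are given in CPM, the count of a gene relative to the TMM-scaled total of its library. The labelled tissue was checked on hepatocyte markers. The 17 measured members of the hepatocyte list, such as albumin and the apolipoproteins, summed to between 101500 and 125000 CPM in wild type and between 120300 and 123300 in mutants. In bulk liver, fewer cells of a type and less RNA per cell cannot be told apart. The libraries did not sort fully by genotype. Pearson's r of log2 CPM over 12409 genes ran from 0.926 to 0.978 within groups and from 0.932 to 0.979 between them, as a description of points that share genes and depth. The medians were 0.964 within groups and 0.955 between them. Mutant library 3 was closest to wild-type library 1 (0.979), mutant library 4 to mutant library 3 (0.978) and mutant library 2 to wild-type library 2 (0.962). Wild-type libraries 2 and 3 were each closest to wild-type library 4 (0.965 and 0.975), and wild-type library 4 to wild-type library 3. The lowest value of any pair, 0.926, was inside the mutant group.

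Some libraries stood apart. Mutant library 2 had by far the highest acute-phase RNA, with a summed level of 225800 CPM against 50490 to 117100 CPM in the other 6 libraries. In wild-type library 2 the median of 19 bile-duct markers lay 1.67 above the wild-type mean on the log2 scale, against -0.65 to 0.57 in the other 6 libraries. In wild-type library 3 the median of 16 neutrophil markers lay 2.52 above it, against -1.66 to 0.35 in the others. Wild-type library 1 shared with mutant libraries 3 and 4 a shift towards short transcripts. In genes whose longest annotated transcript is 1712 bases or less, the median log2 level lay 0.26 above the wild-type mean in wild-type library 1, 0.42 in mutant library 3 and 0.40 in mutant library 4, against -0.21 to 0.03 in the other 4 libraries. In genes with transcripts of 5128 bases or more the order was turned round, with -0.13 in wild-type library 1, -0.24 and -0.29 in mutant libraries 3 and 4, and -0.09 to 0.12 in the rest.

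**Figure D1:**
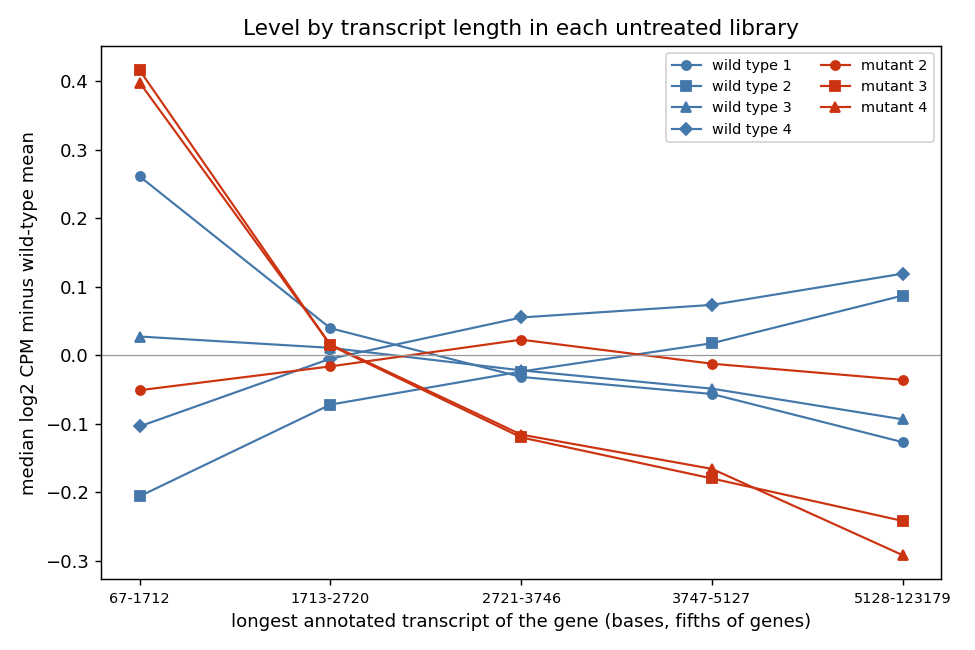
Median log2 CPM minus the wild-type mean (vertical axis) for genes in 5 equal classes of the longest annotated transcript in bases (horizontal axis), 1 line per untreated library, blue for wild type and red for mutants. Mutant libraries 3 and 4 and wild-type library 1 slope down from short to long transcripts, while mutant library 2 stays near the wild-type mean in all 5 classes.

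Between genotypes, 75.7% of the genes in the shortest class were higher in mutants (median log2 difference 0.28), against 28.1% of those in the longest class (median -0.18). Values relative to the length class are given below for some lists, among them the ribosomal, respiratory and histone ones. The part of transcript length in the results was not tested.

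No gene passed the test between untreated mutants and wild type. Of 16115 genes tested with edgeR's quasi-likelihood fit of all 18 libraries, 0 (0%) had a Benjamini-Hochberg adjusted p under 0.05. The smallest adjusted p was 0.973. The same edgeR test on the 7 untreated libraries alone also called 0, with a smallest adjusted p of 0.132 over 14680 genes. DESeq2 and limma-voom also called 0, with smallest adjusted p of 0.397 and 0.0842. At an unadjusted p under 0.05, 219 genes lay higher in mutants (1.36% of those tested) and 197 lower (1.22%). In both directions together, the count at that unadjusted threshold was 416 in edgeR's fit of all 18 libraries. It was 559 in DESeq2, 4075 in limma-voom with quality weights and 993 in edgeR's fit of the 7 untreated libraries alone. The count thus depended on the tool and on the libraries fitted. In the authors' deposited table of this contrast, 0 genes had an adjusted p under 0.05, 904 had an unadjusted p under 0.05, and the smallest adjusted p was 0.0821. Each difference between untreated groups given below is thus one that did not pass correction over all genes.

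Without a test, 403 genes (2.5%) had all 3 mutant libraries above all 4 wild-type libraries and 615 (3.82%) had them all below. The split depended on scaling: with DESeq2 size factors in place of TMM it was 528 above and 483 below. Without mutant library 2 the counts were 2319 above and 2946 below, a comparison of 2 mutant libraries against 4. With 3 libraries against 4, random order alone would also put a few percent of genes on each side. Whether the 2.5% and 3.82% differ from that was not tested, so a lack of overlap does not by itself set a gene apart. Over all genes 47.8% were higher in mutants, with a median log2 difference of -0.021.

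Among genes of at least 1 CPM whose groups did not overlap, predicted genes left aside, the one furthest down was Tsku, which encodes tsukushi, a small leucine-rich protein that the liver secretes into the blood. It stood at 28.2, 87.7, 64.0 and 83.7 CPM in wild-type libraries 1 to 4 and at 13, 10.01 and 19 CPM in mutant libraries 2 to 4. All mutants were below all wild types, although wild-type library 1 came close. The means were 65.9 ± 27.2 CPM (SD, n = 4) and 14.0 ± 4.56 CPM (SD, n = 3), and the fitted log2 difference was -2.24 ± 0.56 (SE). In the drug-treated mutants Tsku lay between 46.7 and 60.9 CPM with metformin, 26.1 and 125 CPM with oxymetholone and 29.4 and 114 CPM with both. Every treated mutant was thus above the untreated mutants, although the lowest oxymetholone library was below the lowest wild type.

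Pck1, the enzyme that commits carbon to gluconeogenesis, was lower by less. Its level was 728, 741, 1277 and 1063 CPM in wild type and 198, 444 and 332 CPM in mutants, without overlap (log2 difference -1.55 ± 0.60). G6pc, which releases free glucose in the final step of the same pathway, was at 154, 68.6, 189 and 223 CPM in wild type and at 49.1, 63.9 and 69.5 CPM in mutants (-1.38 ± 0.51). The mutant values of G6pc were tightly grouped, and only wild-type library 2 fell within their range.

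Alas1, the first enzyme of haem synthesis, stood at 176, 113, 126 and 184 CPM in wild type and at 42.8, 26.0 and 93.2 CPM in mutants (-1.47 ± 0.86). The groups did not overlap, but the mutant libraries differed among themselves more than 3-fold and the error was wide. Drug-treated mutants ranged from 46.8 to 423 CPM with metformin, 66.9 to 745 CPM with oxymetholone and 147 to 663 CPM with both.

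Further genes with all mutants below all wild types were spread over several functions. Gstm3, a glutathione transferase, averaged 136 CPM in wild-type livers against 46.0 CPM in mutant ones (-1.56 ± 0.96). Plk3, a stress-responsive polo-like kinase, averaged 19 and 6.81 CPM (-1.47 ± 0.68). Scnn1a, the alpha subunit of the epithelial sodium channel, averaged 11.4 and 4.34 CPM (-1.39 ± 0.79), and Myom2, a sarcomere protein, 8.87 and 3.49 CPM (-1.35 ± 0.54). Adgra2, an adhesion receptor of endothelium, and Sned1, a matrix protein, were weak genes of under 4 CPM in every untreated library (-1.54 ± 0.61 and -1.46 ± 0.61). The spread inside the wild-type group was wide for Gstm3, which ran from 71.8 to 256 CPM there.

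Among genes chosen the same way that were higher in mutants, Dmbt1 had the largest difference. It encodes a secreted scavenger receptor of mucosal and ductal epithelium. Wild-type libraries held 2, 6, 0 and 0 counts and mutant libraries 150, 159 and 172 counts, or at most 0.214 CPM against 5.33, 8.70 and 6.31 CPM (log2 difference 6.37 ± 2.29). The groups were far apart and the mutants close to each other. The gene was at 4.35 CPM or more in the 3 metformin libraries, reaching 3764 CPM in one, and at 0 to 1.16 CPM in the 5 oxymetholone libraries. With both drugs it was at 0, 0 and 7.85 CPM. The authors' deposited table gives Dmbt1 a log2 fold change of 8.45 with an adjusted p of 0.126.

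Gimd1, a GTPase-like gene, had the tightest groups of the leading genes. It stood at 16.8, 16.6, 17.4 and 13.1 CPM in wild type and at 34.9, 30.6 and 31.8 CPM in mutants (1.02 ± 0.42). The means were 15.96 ± 1.95 CPM (SD, n = 4) and 32.5 ± 2.19 CPM (SD, n = 3). In treated mutants it ranged from 7.33 to 38.1 CPM, which spans both groups.

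Vcpkmt, which methylates the segregase VCP, stood at 15.2, 12, 4.51 and 3.97 CPM in wild type and at 18.0, 17.5 and 31.0 CPM in mutants (1.32 ± 0.50). Serpina10, the protein Z-dependent protease inhibitor of plasma, stood at 671, 467, 706 and 488 CPM in wild type and at 1915, 1071 and 897 CPM in mutants (1.15 ± 0.50). Prelid2, a gene of the PRELI family, averaged 17.3 CPM in wild-type livers against 38.6 CPM in mutant ones (1.16 ± 0.42). In all 3 the mutants lay above every wild type.

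Sec61g encodes the gamma subunit of the channel through which new proteins enter the endoplasmic reticulum. It was at 197, 97.6, 103 and 97.8 CPM in wild type and at 215, 411 and 247 CPM in mutants (1.23 ± 0.46). Wild-type library 1, the one with the shift to short transcripts, was nearly level with mutant library 2. Its partner Sec61b gave the same order, with 217, 116, 134 and 135 CPM against 238, 342 and 240 CPM (0.86 ± 0.37).

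Ptk6, a non-receptor tyrosine kinase, averaged 4.31 CPM in wild-type livers against 8.99 CPM in mutant ones (1.06 ± 0.66), and Cgref1, a calcium-binding growth regulator, 0.852 and 2.50 CPM (1.55 ± 0.66). The Cgref1 difference was carried by mutant library 2 at 5.19 CPM, with 1.26 and 1.06 CPM in the other mutants. AY036118, whose role is left out here, averaged 83.3 and 212 CPM (1.35 ± 0.37). Of the 5 genes with the smallest p, Tsku is given above, and the other 4 were weak or rested on 1 library. Gm4468, a predicted gene, had 13 to 38 counts in wild type and 2 to 6 in mutants (-2.65 ± 0.59). H4f16, a histone H4 gene, had 1 to 8 counts in wild type and 23 to 24 in mutants (2.45 ± 0.58), and reads could be shared with its many near-identical copies.

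Mup22, a major urinary protein, stood at 2.56 to 4.05 CPM in wild type and at 1.17, 277 and 4.55 CPM in mutants, so that its difference of 4.91 ± 1.29 became -0.13 without mutant library 3. Its neighbour in the family, Mup10, also peaked in that library at 66.2 CPM. Gm20442, another predicted gene, reached 15.8 CPM in mutant library 2 and no more than 0.147 CPM in the other 6 libraries (6.96 ± 1.84, and 1.03 without mutant library 2). Members of the urinary protein family are near-identical, and how reads were shared between them is not given in the sources used here.

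**Figure D2:**
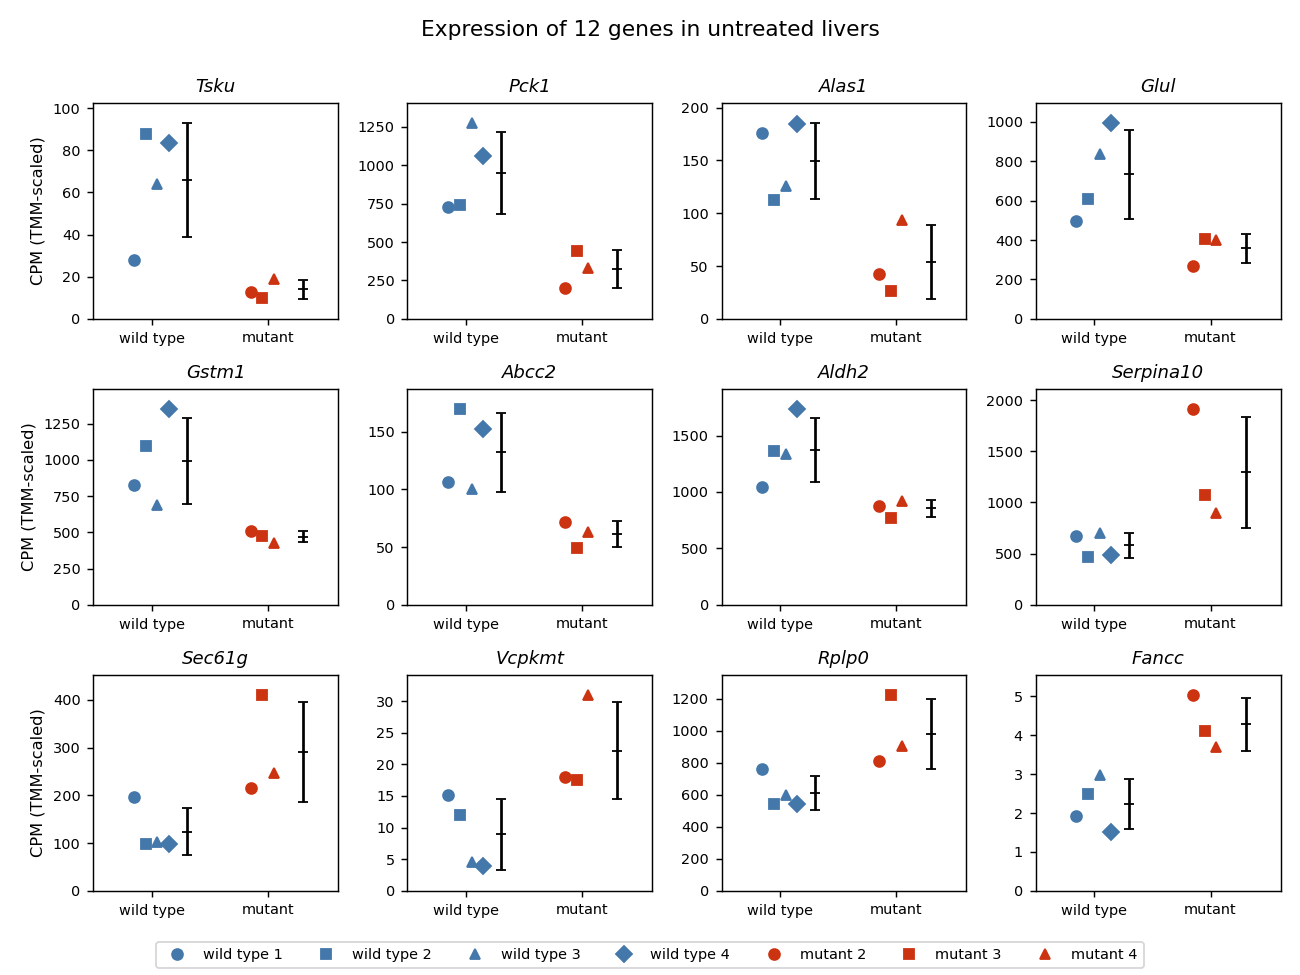
Expression in CPM (vertical axis, from 0) of 12 genes in the 4 wild-type (blue) and 3 mutant (red) untreated libraries, with each group's mean and SD in black and 1 symbol per library. The 12 genes are all ones whose groups did not overlap, so the gap in each panel comes from that choice. Genes in the text that overlapped, such as G6pc and Tat, are not shown. The groups come closest for Rplp0 and Sec61g, through wild-type library 1.

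Several hepatocyte lists had most members lower in mutants, while others did not. The hepatokine list had 15 of 28 members higher (median 0.02), and the coagulation and complement list 24 of 40 (median 0.041). The pericentral list, genes expressed next to the central vein, had 25 of 28 members lower in mutants and 3 higher, with a median log2 difference of -0.51 against -0.021 over all genes. In 6 members all mutants were below all wild types (3.82% of all genes), 4 were lower at an unadjusted p under 0.05 (1.22% of all genes) and 0 were called. Glul, glutamine synthetase, the defining gene of the last cell layer, stood at 496, 608, 835 and 996 CPM in wild type and at 270, 403 and 399 CPM in mutants (-1.04 ± 0.33). Gstm1, a glutathione transferase, was at 824, 1098, 687 and 1353 CPM in wild type and at 507, 476 and 428 CPM in mutants (-1.07 ± 0.48).

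Both genes separated the groups. Csad, which makes taurine precursors, had a log2 difference of -1.05 ± 0.46 with wild-type library 2 at 28.6 CPM, below the mutants at 41.5 to 46.1 CPM. Nkd1, an inhibitor that Wnt signalling induces against itself, was at 3.32 CPM in wild-type library 1, at 5.51 to 5.95 CPM in the other wild types and at 1.95 to 2.90 CPM in mutants (-1.16 ± 0.45). The list without mutant library 2 had 21 of 28 members lower and a median of -0.25, and without mutant library 3 all 28 were lower, with a median of -0.65. The periportal list, at the other end of the zone, had 14 of 26 members lower and a median of -0.019. Without mutant library 2 its median was -0.31, with 15 of 26 lower, next to the -0.25 of the pericentral list in that fit, and without mutant library 3 it was -0.28. The difference between the zones was not tested. The periportal list also holds Pck1.

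Genes of the Wnt feedback list had 19 of 20 members lower (median -0.38), and 18 or 19 in each of the 7 fits that left out 1 library. Apc, the scaffold that brings beta-catenin to degradation, was at 11 to 15.6 CPM in wild type and at 7.45 to 9.09 CPM in mutants (-0.69 ± 0.28). None of the list's genes measured at 1 CPM or more belonged to the shortest transcript class. After subtraction of the median of each gene's own length class, its median was -0.31. With the drug-treated mutants included, each mutant group weighing equally, 14 of 20 members were lower and the median was -0.061.

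Targets of the xenobiotic receptors PXR and CAR had 30 of 37 members lower (median -0.48), with 4 members without overlap (3.82% of all genes), and 27 lower with a median of -0.22 without mutant library 2. Abcc2, the pump that exports conjugates into bile, stood at 107, 170, 100 and 153 CPM in wild type and at 71.6, 49.5 and 62.9 CPM in mutants (-1.11 ± 0.33). The groups did not overlap. Ugt1a9, a glucuronosyltransferase, averaged lower with overlap (-0.94 ± 0.45), as did Ephx1, the microsomal epoxide hydrolase (-0.86 ± 0.45). Of the bile acid list 24 of 29 members were lower (median -0.28), and 18 were with a median of -0.087 without mutant library 2. Abcb4, which flips phospholipid into bile, was at 188, 243, 139 and 161 CPM in wild type and at 113, 123 and 109 CPM in mutants (-0.67 ± 0.30).

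Lists of fuel metabolism differed in how far they depended on single libraries. The fatty acid oxidation list had 31 of 40 members lower (median -0.11), but 18 of 40 with a median of 0.074 without mutant library 2. Of the gluconeogenesis and glycolysis list 25 of 30 members were lower (median -0.31), 4 of them without overlap (3.82% of all genes) and 4 at an unadjusted p under 0.05 (1.22% of all genes). Pfkfb3, the kinase that makes the activator of glycolysis, was at 2.72 to 5.27 CPM in wild type and at 1.48 to 1.95 CPM in mutants (-1.03 ± 0.45), and Pklr, liver pyruvate kinase, was at 41.8 to 114 CPM and 23.3 to 63.9 CPM (-0.84 ± 0.40). The list's median stayed between -0.38 and -0.27 when any 1 library was left out. Of the lipogenesis list 22 of 24 were lower (median -0.35), among them Lpin1, a phosphatidate phosphatase (-0.98 ± 0.54), and Acaca, which makes malonyl-CoA (-0.63 ± 0.45). The median of that list was -0.21 without mutant library 3 and -0.63 without mutant library 4.

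The urea cycle and amino acid breakdown list had 26 of 32 members lower (median -0.45). Tat, which begins tyrosine breakdown, was at 606, 424, 1230 and 1155 CPM in wild type and at 393, 417 and 286 CPM in mutants (-1.22 ± 0.59), with mutant library 3 and wild-type library 2 almost level. Prodh, proline dehydrogenase, had a difference of -1.06 ± 0.53 with overlap. Mutant library 2 weighed most here: its own list level relative to the wild-type mean was -0.99 on the log2 scale, against -0.11 and -0.17 in mutant libraries 3 and 4, and without it 20 of 32 members were lower with a median of -0.19.

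**Figure D3:**
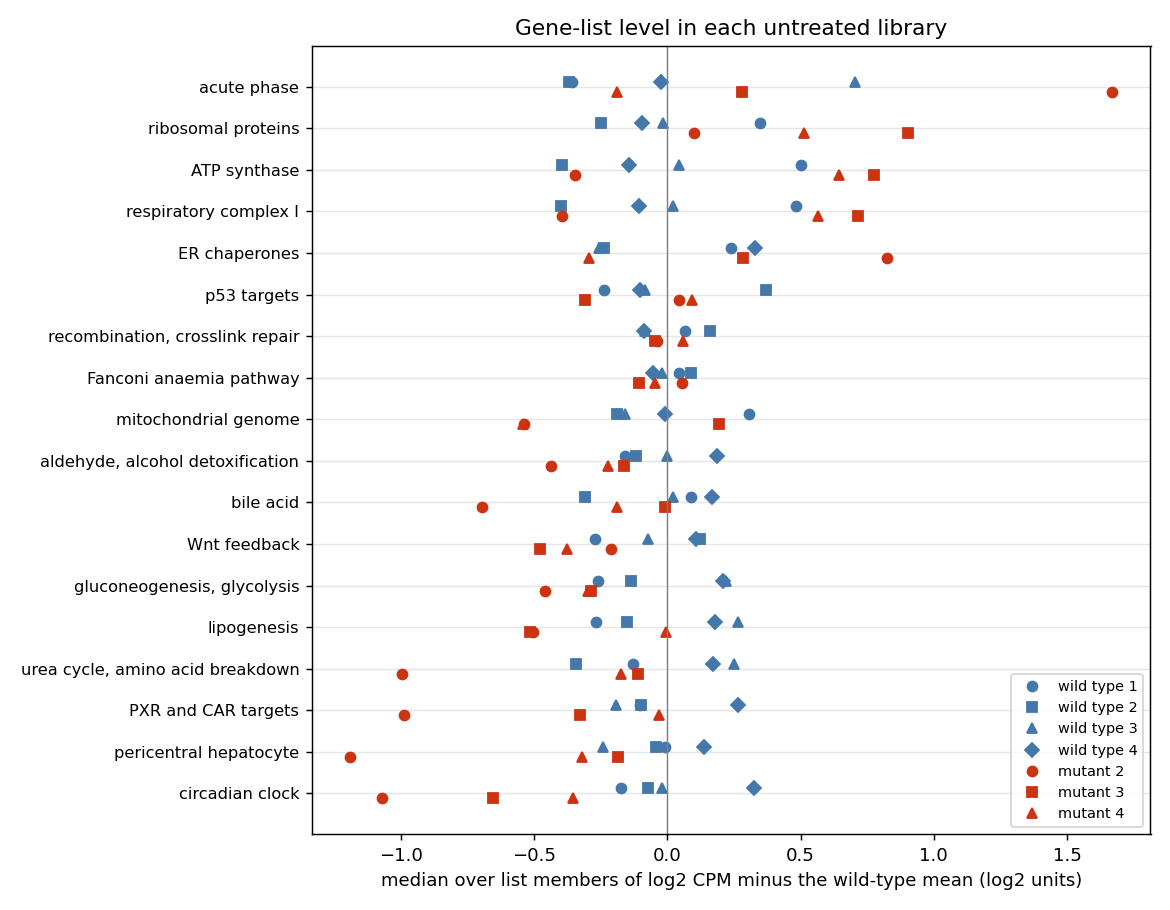
For 18 gene lists (rows), the median over members of log2 CPM minus the wild-type mean (horizontal axis, log2 units) in each untreated library, blue for wild type and red for mutants. Mutant library 2 (red circle) lies furthest left in the pericentral, PXR and CAR, urea cycle and clock rows and furthest right in the acute-phase row, while mutant libraries 3 and 4 and wild-type library 1 lie together at the right in the ribosomal and respiratory rows.

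The circadian clock list was lower in each untreated mutant library. Transcripts of the clock rise and fall over the day through E-boxes, the DNA letters CACGTG, which the Clock and Bmal1 proteins bind and the Per and Cry proteins silence. Of 25 members 22 were lower (median -0.54), 5 without overlap (3.82% of all genes) and 2 at an unadjusted p under 0.05 (1.22% of all genes). The level of the list relative to the wild-type mean was -1.07, -0.65 and -0.35 in mutant libraries 2, 3 and 4 and -0.17 to 0.32 in wild type. All 3 mutants were below all 4 wild types, and leaving out any library kept the median between -0.76 and -0.55. Drug-treated mutant libraries lay between -0.78 and 0.93. With them included, each mutant group weighing equally, 14 members were higher and 11 lower, with a median of 0.12. The low level was thus not shared by all mutants on treatment. The labels give no hour of collection, so the part of the time of day was not tested.

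Per1, an inhibitor within the clock that also responds quickly to hormones, was at 3.87, 6.27, 6.88 and 5.71 CPM in wild type and at 1.53, 1.15 and 4.22 CPM in mutants (-1.30 ± 0.56). Noct, a clock-driven phosphatase, was at 7.41, 4.88, 11.5 and 11.7 CPM and at 1.6, 1.31 and 5.28 CPM (-1.69 ± 0.84). Bhlhe40, a repressor that binds E-boxes, was at 23.5, 46.0, 36.4 and 47.5 CPM and at 17.6, 21.9 and 30.0 CPM (-0.73 ± 0.31). In each of these, mutant library 4 lay above the lowest wild type, so the groups overlapped.

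The E-box is shown here in its place before the start of 3 members of the list, from the RefSeq promoter table of build GRCm38.p6, with the E-box in capitals, 60 bases each, on the gene's own strand. The files use another build, so these positions were matched by gene symbol only.
Per1 (chr11:69098756-69098815, plus strand): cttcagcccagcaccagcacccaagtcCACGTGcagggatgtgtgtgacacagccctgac
Ciart (chr3:95882312-95882371, minus strand): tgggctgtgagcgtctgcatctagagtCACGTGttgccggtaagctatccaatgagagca
Cry1 (chr10:85185082-85185141, minus strand): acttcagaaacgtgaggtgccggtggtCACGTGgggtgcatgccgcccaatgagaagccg
Of 21 clock genes with an entry in that table, 5 (23.8%) hold CACGTG, which reads the same on both strands, between 250 bases before and 50 after the start. The share over all 11529 genes with an entry was 11.3%. It was 15.4% of 26 genes in the gluconeogenesis and glycolysis list, of which 0 hold the cAMP response element TGACGTCA, found in 3.34% of all. A match is a description of the letters and not of binding.

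Ribosomal protein genes lay higher in mutants, with 1 exception. Of 80 genes 79 were higher in mutants, with a median log2 difference of 0.55, 4 had all mutants above all wild types (2.5% of all genes) and 8 were higher at an unadjusted p under 0.05 (1.36% of all genes). None was called. Rplp0, of the ribosomal stalk, stood at 761, 540, 600 and 544 CPM in wild type and at 813, 1226 and 905 CPM in mutants (0.68 ± 0.28). Rps29, of the small subunit, was at 323, 214, 203 and 222 CPM and at 383, 461 and 356 CPM (0.73 ± 0.30). Rpl41, the shortest ribosomal protein, was at 588 to 1131 CPM and at 930 to 2267 CPM (1.07 ± 0.44).

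The level of the whole list was 0.10, 0.90 and 0.51 in mutant libraries 2, 3 and 4 relative to the wild-type mean, and 0.35 in wild-type library 1. The median difference was 0.32 without mutant library 3 and 0.72 without mutant library 2, while the number higher stayed at 77 to 80. Of 79 members at 1 CPM or more 60 belong to the shortest transcript class, whose median over all genes was 0.28. After that class median was subtracted gene by gene, the list's median was 0.32 and 66 of 79 genes were above their class. Pseudogene copies could take or give reads in this family.

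Ribosomal protein transcripts often begin with a run of pyrimidines at their start, through which growth signals govern their translation. A run of at least 6 C or T letters next to the annotated start was present in 30 of 57 ribosomal genes with an entry (52.6%) and in 25.2% of all genes with one. Rplp2, a stalk protein with a log2 difference of 0.55 ± 0.24, shows it, in capitals, across the start in RefSeq's GRCm38.p6.
Rplp2 (chr7:141447636-141447665, plus strand): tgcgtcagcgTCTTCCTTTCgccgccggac

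Respiratory chain genes of the nucleus were mostly higher in mutants and those of the mitochondrial genome mostly lower, with large differences between mutant libraries. Of nuclear complex I genes 35 of 42 were higher in mutants (median 0.35), of complexes III and IV 19 of 22 (median 0.37) and of ATP synthase 18 of 20 (median 0.39). Without mutant library 3 these 3 medians were 0.13, 0.14 and 0.17, and without mutant library 2 they were 0.63, 0.66 and 0.69. Atp5e, the epsilon subunit of ATP synthase, was at 498, 302, 482 and 249 CPM in wild type and at 337, 1276 and 1084 CPM in mutants (1.23 ± 0.54), and Ndufa2, of complex I, was at 151 to 277 CPM and at 185, 416 and 342 CPM (0.63 ± 0.33). Mutant library 2 was inside the wild-type range for both.

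That library had complex I and ATP synthase levels of -0.40 and -0.35 relative to the wild-type mean, against 0.72 and 0.78 in mutant library 3. Wild-type library 1 stood at 0.48 and 0.50. These lists also belong mostly to the shortest transcript class, in 32 of 40 complex I genes at 1 CPM or more, and after subtraction of the class median their medians were 0.10 and 0.24. The 15 genes of the mitochondrial genome, which are short too, had 13 members lower (median -0.25, and -0.52 against their length class), 7 without overlap (3.82% of all genes). The median was -0.52 without mutant library 3 and -0.12 without mutant library 4. The level of the list relative to the wild-type mean was -0.54, 0.19 and -0.54 in mutant libraries 2, 3 and 4. Nuclear complex I genes stood at -0.40, 0.72 and 0.57 in the same libraries, so by list medians the signs were opposite in mutant library 4 alone. In summed CPM, which the strongest genes dominate, the mitochondrial genome list was below every wild type in all 3 mutants. It was at 22900, 30100 and 22320 CPM in them against 30880 to 42120 CPM in wild type. The complex I sums were 4300, 9224 and 8626 CPM against 4372 to 7825 CPM, so mutant library 3 also went opposite ways by this measure. The gene mt-Nd5, a complex I subunit, was at 2329, 2163, 1569 and 1881 CPM in wild type and at 1304, 1243 and 1088 CPM in mutants (-0.71 ± 0.47), and mt-Co1, of complex IV, at 12400 to 17320 CPM and 9188 to 11070 CPM (-0.55 ± 0.42). One exception, mt-Nd3, was at 32.9 to 74.8 CPM in wild type and at 38.2, 118 and 83.8 CPM in mutants (0.66 ± 0.49).

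Chaperones of the endoplasmic reticulum were higher in 20 of 22 members (median 0.31), but in 11 of 22 with a median of 0.024 without mutant library 2. Hsp90b1, the chaperone GRP94, was at 235 to 321 CPM in wild type and at 520, 433 and 213 CPM in mutants (0.48 ± 0.30). Sdf2l1, a partner of the chaperone BiP, was at 35.9 to 95.9 CPM and at 234, 119 and 52.3 CPM (1.11 ± 0.60). Mutant library 4 was below or within the wild-type range for both. The histone list had 16 of 18 members higher (median 0.40, 0.20 without mutant library 2). Among them was the linker histone H1f0 at 111 to 131 CPM in wild type and 179, 145 and 136 CPM in mutants (0.30 ± 0.22). Of the list's 8 members at 1 CPM or more, 4 belonged to the shortest transcript class. The median of these 8 was 0.38, and 0.21 after subtraction of the class median.

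The acute-phase response, the proteins that liver puts out under inflammatory cytokines, stood out in 1 mutant library. The list had 29 of 34 members higher (median 0.82), yet 0 separated the groups, and without mutant library 2 it had 17 of 34 higher and a median of 0.0062. Saa3, a serum amyloid, was at 9.41 to 41.7 CPM in wild type and at 436, 17.7 and 64.6 CPM in mutants (2.84 ± 1.08). Serpina3n, an inhibitor of serine proteases, was at 208 to 329 CPM and at 1851, 226 and 146 CPM, and its difference of 1.41 ± 0.90 became -0.58 without that library. Spp1, osteopontin, made by ducts and macrophages, stood at 45.2 to 228 CPM in wild type and at 1440, 52.2 and 62.8 CPM in mutants. It went from 2.37 ± 1.2 to -0.80 in the same way.

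Markers of other cells also followed single libraries. Granule genes of developing neutrophils were concentrated in wild-type library 3. Mpo, myeloperoxidase, was at 17.1 CPM there, at 0.0921 to 1.5 CPM in the other wild types and at 0 to 0.355 CPM in mutants (-4.90 ± 1.87). Ngp, a granule protein, was at 44.8 CPM in that library and at 3.89 CPM or less in the other 6 (-3.91 ± 1.73). The neutrophil list had 13 of 16 members lower (median -1.49), and 7 of 15 with a median of 0.30 without wild-type library 3. Its summed level was nevertheless highest in mutant library 2, at 4914 CPM against 1418 CPM in wild-type library 3, and 4874 CPM of it was Lcn2, an acute-phase gene as well, taken up after its values were seen. Bile-duct markers had 15 of 19 lower (median -0.69), and 6 of 19 with a median of 0.40 without wild-type library 2. Here too the summed level was highest in mutant library 2, at 1531 CPM against 350 CPM in wild-type library 2, and 1440 CPM of it was Spp1. For stellate cell and matrix genes the counts were 27 of 32 lower (median -0.34) and 13 of 32 (median 0.079) without that same library.

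**Figure D4:**
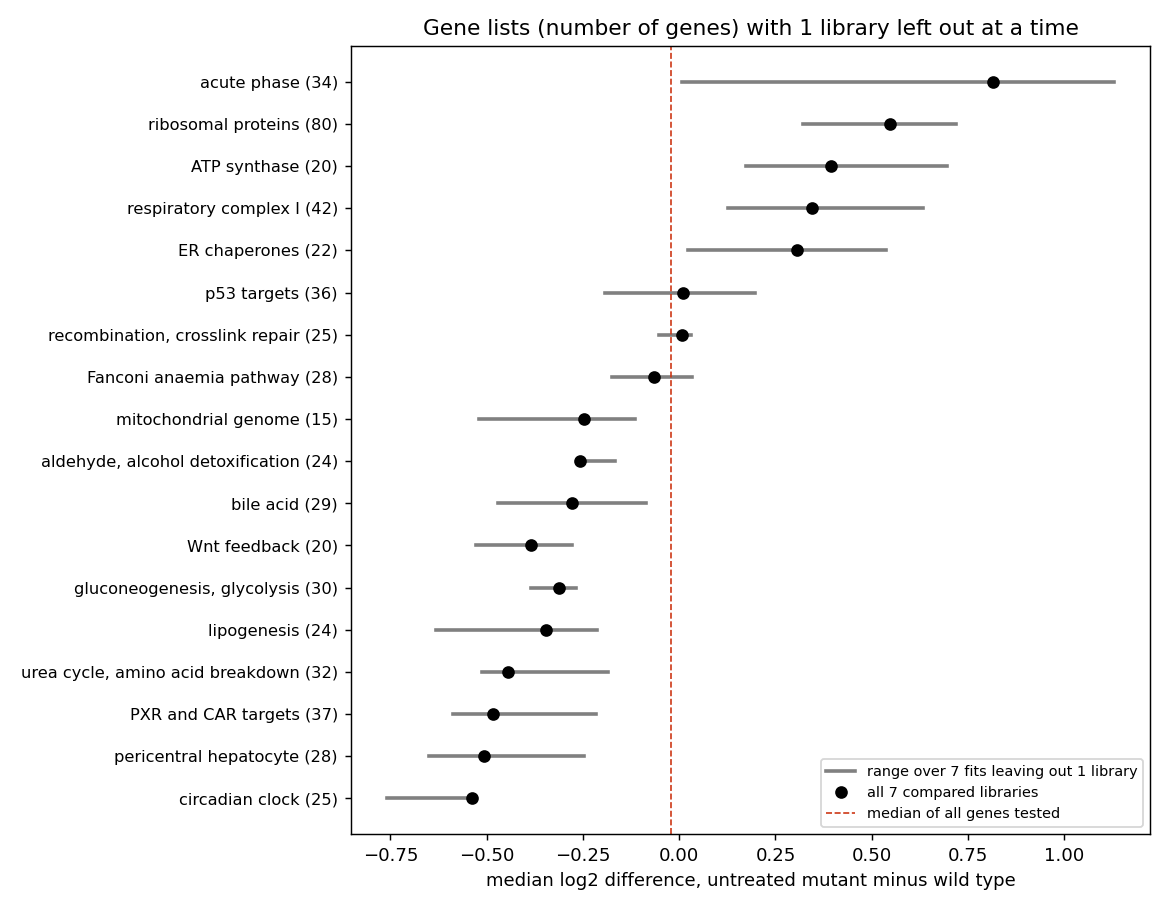
Median log2 difference, untreated mutant minus wild type (horizontal axis), of 18 gene lists with the number of genes in brackets; the black point uses all 7 libraries and the grey bar spans the 7 fits that each left out 1 library. The acute-phase bar runs from 0.0062 to 1.13, its lower end close to the median of all genes, the dashed red line. It stays on 1 side of that line, as do the clock, Wnt feedback, gluconeogenesis and ribosomal bars, among others.

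The pathway to which Fancd2 belongs showed little. Of 28 other Fanconi anaemia genes 11 were higher and 17 lower, with a median of -0.064, and 1 separated the groups (2.5% of all genes lay above without overlap). That gene was Fancc, of the core complex that ubiquitinates Fancd2, at 1.93, 2.49, 2.97 and 1.5 CPM in wild type and at 5.04, 4.10 and 3.71 CPM in mutants (0.94 ± 0.37). Its means were 2.23 ± 0.64 CPM (SD, n = 4) and 4.28 ± 0.69 CPM (SD, n = 3), and treated mutants ranged from 1.72 to 6.34 CPM. Cenpx, which helps Fancm hold DNA, was at 41.9 to 77.5 CPM in wild type and at 36.2, 96.5 and 114 CPM in mutants (0.62 ± 0.44), and Ercc4, the nuclease that unhooks crosslinks, at 3.08 to 5.47 CPM and 1.94 to 4.58 CPM (-0.59 ± 0.43).

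Homologous recombination and crosslink repair genes divided evenly, 13 higher and 12 lower (median 0.0063). Nbn, of the complex that senses broken ends, was at 12.2 to 15.3 CPM in wild type and at 9.38, 10.1 and 12 CPM in mutants (-0.38 ± 0.18). Rad51b, a paralogue of the recombinase, was at 27.8 to 67.7 CPM and at 73.6, 71.9 and 119 CPM (0.80 ± 0.58). Targets of p53, the factor that DNA damage activates, were 18 higher and 18 lower (median 0.011). Tigar, which restrains glycolysis, was at 9.40 to 13.8 CPM in wild type and at 7.53, 7.05 and 8.66 CPM in mutants (-0.59 ± 0.23), while Gadd45a overlapped (0.47 ± 0.37).

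Enzymes that clear aldehydes and alcohols were lower in 18 of 24 members (median -0.26), 4 without overlap (3.82% of all genes). Aldh2, the mitochondrial enzyme that removes acetaldehyde, stood at 1048, 1360, 1339 and 1737 CPM in wild type and at 877, 771 and 916 CPM in mutants (-0.68 ± 0.30). The means were 1371 ± 282 CPM (SD, n = 4) and 855 ± 74.8 CPM (SD, n = 3), a ratio of 1.6, and the groups did not overlap. Aldh1a1, the cytosolic enzyme for retinal and other aldehydes, was at 1925 to 2808 CPM and at 1313 to 1788 CPM (-0.47 ± 0.28). Aldh5a1, for succinic semialdehyde, was at 19.7 to 28.4 CPM and at 14.4 to 17.0 CPM (-0.50 ± 0.35). The list had 16 to 21 members lower in the fits that left out 1 library.

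Genes next to Fancd2 were also measured, since a targeted locus can affect its neighbours or carry flanking DNA of another strain. Of the 20 protein-coding genes on each side in the RefSeq gene table, 35 were measured, 20 higher and 15 lower, with a median of 0.086. Of these 2 lay above and 2 below without overlap, where 2.5% and 3.82% of all genes did, and 0 were called. Brpf1, a chromatin reader, was at 5.06, 6.05, 4.94 and 5.44 CPM in wild type and at 3.87, 3.23 and 3.48 CPM in mutants (-0.61 ± 0.26). Srgap3 was at 2.14 to 4.59 CPM and at 1.46 to 1.87 CPM (-1.09 ± 0.55), and Camk1 and Sec13 were the ones above (0.48 ± 0.36 and 0.39 ± 0.28). The flanking strain of the mice was not tested.

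The authors' deposited table ranks other genes first. Its smallest p belongs to Krt19, a bile-duct keratin, with a log2 fold change of 2.77 and an adjusted p of 0.0821, a gene taken up here after its values were seen. In CPM Krt19 was at 0.691, 2.92, 0.430 and 0.732 in wild type and at 3.66, 0.766 and 1.76 in mutants, with a fitted log2 difference of 0.79 ± 1.39. The groups overlapped in CPM. In the authors' deposited table the fold changes had the sign of the fit used here in 76.8% of 16115 genes.

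A further comparison set the 14 mutant libraries of all 4 treatment groups, each group weighing equally, against the same 4 wild-type libraries. It shares the wild-type and untreated mutant libraries with the comparison above. In edgeR's fit 0 genes (0%) had an adjusted p under 0.05, the smallest being 0.0857. At an unadjusted p under 0.05, 301 genes (1.87%) were higher and 302 (1.87%) lower. DESeq2 called 19 genes and limma-voom 12. Among those named here DESeq2 called Paqr8, Wif1, Rab38, Tenm3, Bin2 and Tmem45b, and limma-voom the same without Tmem45b.

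The leading genes of that comparison by p included genes set apart by the drug groups. Paqr8, a membrane progesterone receptor, was at 1.254 to 1.89 CPM in wild type and at 1.24 to 1.81 CPM in untreated mutants. It was at 1.63 to 4.92 CPM with metformin, 13.4 to 28.9 CPM with oxymetholone and 9.94 to 13.1 CPM with both drugs. Wif1, a secreted Wnt inhibitor, was at 0.752 to 1.74 CPM in wild type and at 0.213 to 1.04 CPM in untreated mutants. With metformin it was at 2.38 to 4.66 CPM, above every untreated library, and with oxymetholone or both drugs at 9.57 CPM or more. Rab38 was at 0.819 to 2.36 CPM in wild type and 2.30 to 3.77 CPM in untreated mutants. It was at 0.724 to 2.64 CPM with metformin, 12.1 to 17.4 CPM with oxymetholone and 8.97 to 12.5 CPM with both drugs. Tenm3 was at 5.16 to 7.40 CPM in wild type and 3.50 to 4.22 CPM in untreated mutants. It was at 2.20 to 6.60 CPM with metformin, 0.927 to 2.03 CPM with oxymetholone and 1.43 to 2.19 CPM with both drugs.

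Only 7 genes had all 14 mutant libraries on 1 side of all 4 wild types, 3 above (0.0186%) and 4 below (0.0248%). Random order of the libraries would also put a few genes on each side, and whether these counts differ from that was not tested. Above were Tmem45b, a membrane protein, and 2 weak genes outside the naming rule and taken up after their values were seen, Xcr1, a chemokine receptor of dendritic cells, and Rpl3l, a muscle paralogue of Rpl3. Tmem45b was at 0.732 to 1.42 CPM in wild type, at 1.59 to 3.59 CPM in untreated mutants and at 2.11 to 23.1 CPM in treated ones (all-mutant log2 difference 2.11 ± 0.53, adjusted p = 0.67 in edgeR's quasi-likelihood test).

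Below were 4 genes with small differences, each with an adjusted p of 0.964 over all mutants in edgeR's quasi-likelihood test. Cdc40, a splicing factor, was at 14.6 to 20.5 CPM in wild type and at 10.1 to 14.4 CPM over the 14 mutants (-0.42 ± 0.13). Mars1, methionyl-tRNA synthetase, was at 70.1 to 82.2 CPM and at 50.3 to 68.1 CPM (-0.36 ± 0.12). Zfp275, a zinc finger gene, was at 6.98 to 7.71 CPM and at 4.41 to 6.77 CPM, and Abraxas2, scaffold of a deubiquitinating complex, at 22.0 to 24.8 CPM and 14.6 to 21.8 CPM. In untreated mutants alone the log2 differences were -0.38, -0.30, -0.39 and -0.32 for the 4 genes in that order.

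Bin2, a membrane-shaping protein of blood cells, came close to separating all mutants. It stood at 12.7, 5.80, 7.34 and 12.9 CPM in wild type and at 3.77, 2.52 and 4.11 CPM in untreated mutants (-1.48 ± 0.48). Metformin libraries were at 4.06 to 6.60 CPM, oxymetholone libraries at 1.22 to 4.58 CPM and those with both drugs at 1.12 to 4.84 CPM. All mutants but 1 metformin library were thus below the lowest wild type, with an all-mutant log2 difference of -1.49 ± 0.32 and an adjusted p of 0.438 in edgeR's quasi-likelihood test.

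**Figure D5:**
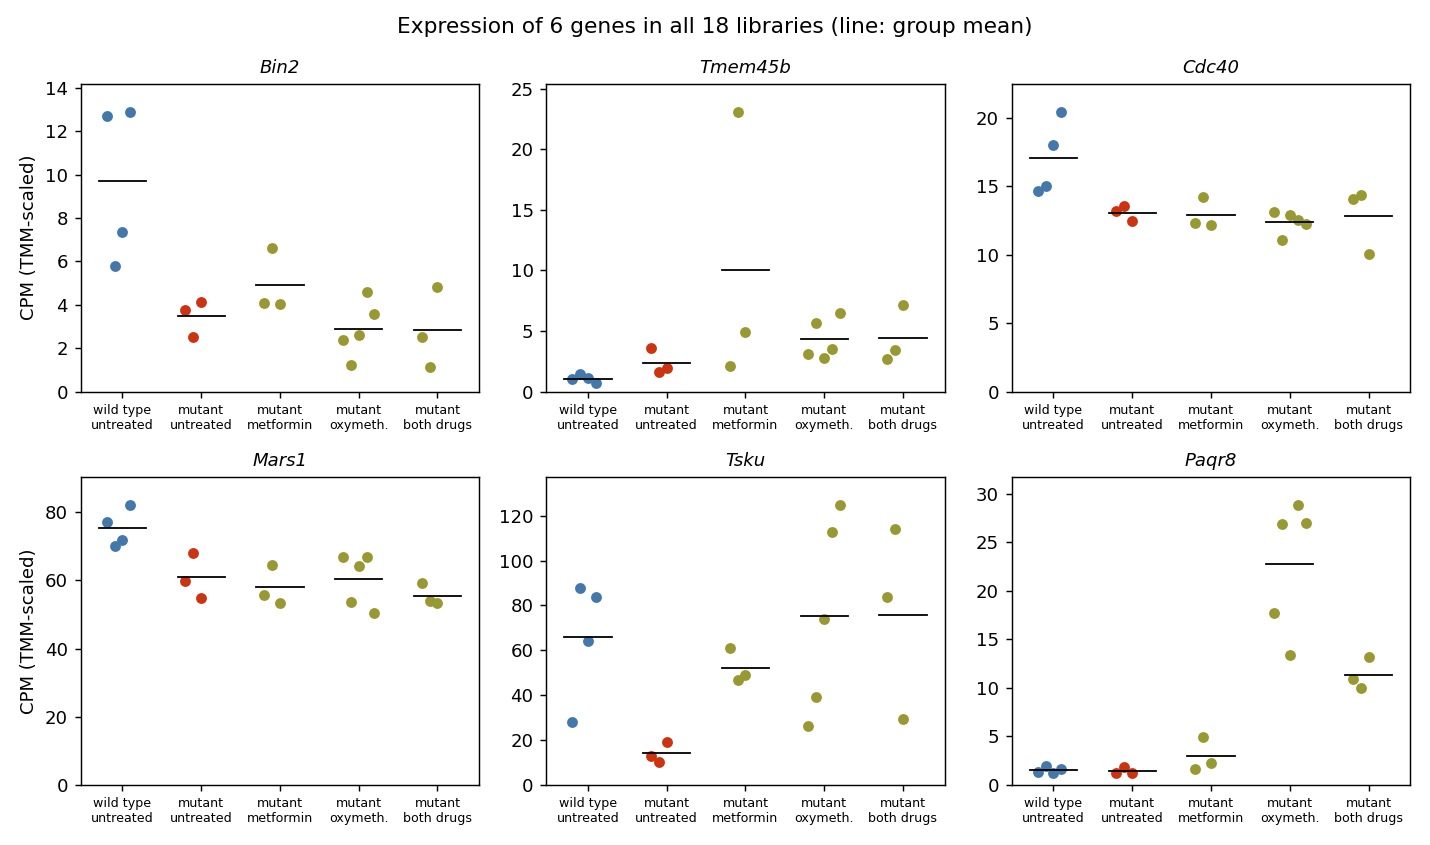
Expression in CPM (vertical axis, from 0) of 6 genes in all 18 libraries by group (horizontal axis), with the group mean as a line. Bin2, Cdc40 and Mars1 are low in mutants of every group, Tmem45b is high in them, Tsku has its lowest group mean in the 3 untreated mutants, and Paqr8 is high in the oxymetholone and combination groups.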

How the data were processed

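RNA of mouse liver was sequenced by the submitters. Whole-number counts per gene were deposited for 18 libraries, per the file headers, as were scaled CPM values (a normalised signal per library), which equal the TMM-scaled CPM computed here. The authors also deposited log2 residuals, which were not used, and their own log2 fold changes and p-values, whose model is not stated. Per the submitters' processing notes the genome build was GRCm39. The names of the aligner and counter were not given in the sources used here. A test on the deposited table found that filterByExpr removed 0 of its genes.

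The counts were fitted with edgeR 4.0.16 (robust quasi-likelihood, TMM, 1 coefficient per group, all 18 libraries) in R 4.3.3, with Benjamini-Hochberg adjustment at 0.05 over all genes. The biological coefficient of variation was 0.426. Log2 CPM used a prior count of 2. Every SE of a log2 difference was worked back from edgeR's quasi-likelihood F statistic, as the absolute difference over the square root of F. It is thus not estimated apart from the p-value. List scores are medians over members. Transcript lengths came from GENCODE, and promoters and gene order from RefSeq GRCm38.p6, matched by symbol, so no coordinates of measured genes are given. The fit was tested on simulated data. DESeq2 1.42.0, limma 3.58.1 (voom), other scaling, filters, the 7 libraries alone and leaving out each library were alternatives.

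Genes were named by a rule: those called, the 5 with the smallest p, the 10 largest differences in each direction among genes of at least 1 CPM without overlap (5 for all mutants), up to 4 members of each list by p, and the neighbours of Fancd2 within 20 genes that stood out. The members and lists were chosen with earlier results of these data known. Labelled samples without a column in the table were not analysed here.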

Additional observations from a re-analysis of the deposited data

Results flagged for a closer look

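In 14 of 129 values examined in groups of 4 or 5 libraries, 1 library lay further from the others than Dixon's critical ratio allows. Chance gives about 1 in 20 for independent, normally distributed values. The values here belong to genes and lists named above, many chosen by their levels and some moving together. The count is thus not directly comparable with that rate.

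Wild-type library 1 was set apart in 5 of them. It had the highest Sec61g (197 CPM, next 103.2) and Rps29 (323 CPM, next 221.6). It also had the lowest Nkd1 (3.315 CPM, next 5.512) and Acaca (9.713 CPM, next 22.25). The summed level of the histone list was highest there too (453.1 CPM, next 358.7).

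Wild-type library 2 had the highest Spp1 (227.9 CPM, next 74.01), Krt19 (2.92 CPM, next 0.7324) and Igkv2-112, an immunoglobulin segment (2.848 CPM, next 0.4603), and the lowest H1f0 (110.5 CPM, next 127.9). Wild-type library 3 had the highest level of 4 neutrophil granule genes, Mpo (17.05 CPM, next 1.503), Ltf (15.73 CPM, next 1.233), Ngp (44.81 CPM, next 3.893) and Elane (18.48 CPM, next 2.313). Igkv2-112 was also set apart in oxymetholone library 5, at 0.02709 CPM where the other 4 libraries were at 0, a level near the floor.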

How the results depend on the processing

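No paired analysis was possible because the labels carry no replicate numbers. The count of 0 genes called between untreated groups was the same under every alternative. At an unadjusted p under 0.05 limma-voom gave 4075 genes and the fit of the 7 libraries alone 993, against 416, and leaving out 1 library gave 179 (without mutant library 3) to 957 (without mutant library 2). Over all mutants DESeq2 called 19 and limma-voom 12, leaving out 1 library gave 0 to 1, limma-voom gave 2580 at an unadjusted p under 0.05 against 603, and leaving out 1 library gave 257 (without wild-type library 4) to 910 (without metformin library 3). Genes without overlap ranged from 476 to 2319 above and from 748 to 2946 below when 1 library was left out, the latter with fewer libraries to separate. These leave-one-out counts and the same under DESeq2 size factors were chosen after seeing the data, as was the subtraction of length-class medians.

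The direction turned for Mup22 (-0.134 without mutant library 3), Serpina3n (-0.265 with limma-voom, -0.581 without mutant library 2), Spp1 (-0.803 without mutant library 2) and Paqr8 between untreated groups (0.0319 with limma-voom, 0.0202 without wild-type library 2). Beyond the libraries named, the cause was not tested. Without 1 library these differences reached 5.49 for Mup22 (without mutant library 2), 1.9 for Serpina3n (without mutant library 4), 3.16 for Spp1 (without wild-type library 2) and -0.292 for Paqr8 (without mutant library 3). The median over all genes moved between -0.0682 and 0.0163 across settings.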
